A study of Mus musculus with 9 samples.

Results

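The transcripts described here encode 9 secreted or membrane-bound chemokines made by myeloid cells: Ccl2, Ccl3, Ccl4, Ccl6, Ccl9, Cxcl2, Cxcl3, Cxcl10 and Cxcl16. They were taken by symbol from a table of 17266 genes, with the condition of at least 10 normalized counts in at least 3 of 9 libraries, and all 9 met it. Of all genes in the table, 13750 met the same condition and were tested. Polyadenylated RNA was sequenced in bulk from C57B/6 bone marrow, taken from female mice aged 6 weeks and depleted of lineage-positive cells. The cells received a retrovirus with ETV6-NCOA2 (3 libraries), KAT6A-NCOA2 (3 libraries) or an empty vector (3 libraries), were kept for 5 days in RPMI that contained SCF, IL-3 and IL-6, and were sorted for GFP. All groups therefore share retroviral infection, the MigR1-IRES-GFP backbone named in the labels, the cytokines and the sort. NCOA2 is a coactivator of nuclear receptors; its fusion partners are ETV6, an ETS-family repressor needed for blood formation, and KAT6A, an enzyme that acetylates histones. Nothing in the labels tells whether a group's libraries are separate animals or repeats of 1 preparation, so the p-values may reflect technical spread only. The libraries held 17.1 to 20.4 M reads, as recovered from the normalized values. The labels call the cells lineage-negative marrow cells, yet macrophage markers were abundant after the culture. Summed levels of 10 macrophage markers were 150453 to 186802 with ETV6-NCOA2, 176580.0 to 198584 with KAT6A-NCOA2 and 152887 to 179997 with empty vector, and those of 6 progenitor markers were 9424 to 12884, 5951 to 9221 and 14081 to 21236.

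Chemokines are small proteins that bind seven-helix receptors on leukocytes and direct their movement along a gradient. CC ligands such as Ccl2, Ccl3, Ccl4, Ccl6 and Ccl9 act mainly on monocytes, macrophages and their precursors, while the CXC ligands Cxcl2 and Cxcl3 act on neutrophils through Cxcr2. Many of these genes sit in tandem clusters that arose by duplication, and several are induced by NF-kappaB or interferon signals in macrophages.

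The members lie on chromosomes 5 and 11 of the GRCm38 genome (GENCODE release M21 annotation). Ccl2 is at 82035571 to 82037453 on chromosome 11, and Ccl9, Ccl6, Ccl3 and Ccl4 lie together farther along it, between 83572919 and 83664683. Ccl9 and Ccl6 are on the same strand with 9245 bp between them, and Ccl3 and Ccl4 are on opposite strands with 13228 bp between them. Cxcl16 is also on chromosome 11, at 70453983 to 70459984. On chromosome 5, Cxcl3 and Cxcl2 are separated by 114270 bp, and Cxcl10 lies at 92346638 to 92348889.

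The promoters of Cxcl3, Ccl9 and Cxcl10, which differed between groups, are shown. Those of Cxcl2 and Ccl6 are added so that the paired genes can be read side by side. RefSeq (GRCm38.p6) gave promoters for 6 members, and the 250 bases before each start site are used. It gave none for Ccl2, Ccl4 and Cxcl16, although Cxcl16 also differed. Capitals mark matches to the NF-kappaB consensus, to an interferon-response core (GAAA, any 2 bases, GAAA) or to the AP-1 motif TGANTCA, each searched on both strands.
Cxcl3 (chr5:90785851-90786100, plus strand): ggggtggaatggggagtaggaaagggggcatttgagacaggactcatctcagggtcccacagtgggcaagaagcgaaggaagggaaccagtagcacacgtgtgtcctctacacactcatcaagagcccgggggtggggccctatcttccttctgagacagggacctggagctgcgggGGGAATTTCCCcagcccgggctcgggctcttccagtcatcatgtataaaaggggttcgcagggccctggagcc
Cxcl2 (chr5:90903649-90903898, plus strand): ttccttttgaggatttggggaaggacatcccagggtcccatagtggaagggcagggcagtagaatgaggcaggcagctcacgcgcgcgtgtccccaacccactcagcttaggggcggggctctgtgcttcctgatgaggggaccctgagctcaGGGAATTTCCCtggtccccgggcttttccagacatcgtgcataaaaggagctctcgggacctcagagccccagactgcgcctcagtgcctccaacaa
Ccl9 (chr11:83578637-83578886, minus strand): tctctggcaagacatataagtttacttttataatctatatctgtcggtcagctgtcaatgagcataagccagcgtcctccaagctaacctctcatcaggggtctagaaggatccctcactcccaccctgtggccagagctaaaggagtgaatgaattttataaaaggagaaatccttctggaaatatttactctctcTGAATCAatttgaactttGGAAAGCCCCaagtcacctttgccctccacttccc
Ccl6 (chr11:83593088-83593337, minus strand): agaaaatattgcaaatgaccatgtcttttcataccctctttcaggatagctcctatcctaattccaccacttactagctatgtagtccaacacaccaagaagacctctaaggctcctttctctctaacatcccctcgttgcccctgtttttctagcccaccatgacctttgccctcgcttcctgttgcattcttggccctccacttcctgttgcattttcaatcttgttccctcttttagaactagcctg
Cxcl10 (chr5:92348890-92349139, minus strand): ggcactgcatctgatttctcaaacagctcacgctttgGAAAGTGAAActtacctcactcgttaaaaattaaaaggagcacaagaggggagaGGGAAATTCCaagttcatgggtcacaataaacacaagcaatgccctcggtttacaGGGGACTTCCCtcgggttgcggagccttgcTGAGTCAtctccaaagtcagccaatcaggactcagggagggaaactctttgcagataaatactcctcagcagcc

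In Cxcl3 and Cxcl2 the capitals are the same 11 letters, GGGAATTTCCC, which hold 2 overlapping matches to the NF-kappaB consensus. They begin 73 bases before the start site in Cxcl3 and 97 bases before it in Cxcl2, and the aligned promoters were identical at 64.0% of positions. The Ccl9 window holds an AP-1 match and, on the strand opposite to the one printed, an NF-kappaB match. The Ccl6 window, 50.4% identical to that of Ccl9, holds neither. Both identities come from alignments with gaps. No unrelated promoters were aligned as a baseline, so likeness of the promoters is not read from them. Cxcl10 has an interferon-response core 213 bases before its start, then 3 NF-kappaB matches, of which 2 overlap, and an AP-1 match. The Ccl3 window was searched too, held no match to any of these motifs and is not printed. Among 32851 RefSeq promoters of the same length, 7.25% held the NF-kappaB consensus, 2.98% the interferon-response core and 6.75% the AP-1 motif. The C/EBP motif TTGCNNAA, in 9.56% of promoters, and the ETS motif CCGGAAGT, in 2.88%, had no match in the 6 windows. A match describes these letters only and says nothing of binding in these cells.

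Together the 9 ligands took between 0.558% and 0.799% of the reads of a library. Ccl6 alone supplied 70.8% to 79.2% of the ligand reads. Per kilobase of the longest protein-coding transcript, Ccl6 averaged 61995 normalized counts over the 9 libraries and ranked 7th to 19th of 13421 genes. Ccl9 and Ccl2 followed with mean levels of 6471 and 6381 per kilobase, and their order differed between groups. Ccl3 (2397), Cxcl16 (1408) and Ccl4 (717) came next on the per-kilobase scale, and Cxcl3 (35.8), Cxcl2 (26.7) and Cxcl10 (13.2) lay far below. Cxcl3 and Cxcl2 did not keep one order either: with ETV6-NCOA2 they averaged 24.5 ± 6.32 and 34.0 ± 17.7 per kilobase, and with empty vector 57.8 ± 13.7 and 23.0 ± 8.64 (SD, n = 3). Cxcl10 stood nearest the inclusion threshold, with at least 10 normalized counts in 5 libraries. Cxcl9, its neighbour and a fellow interferon-induced ligand, reached 10 in 1 library and was not tested. Cxcl1, also a Cxcr2 ligand, reached it in 0 libraries.

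**Figure D1:**
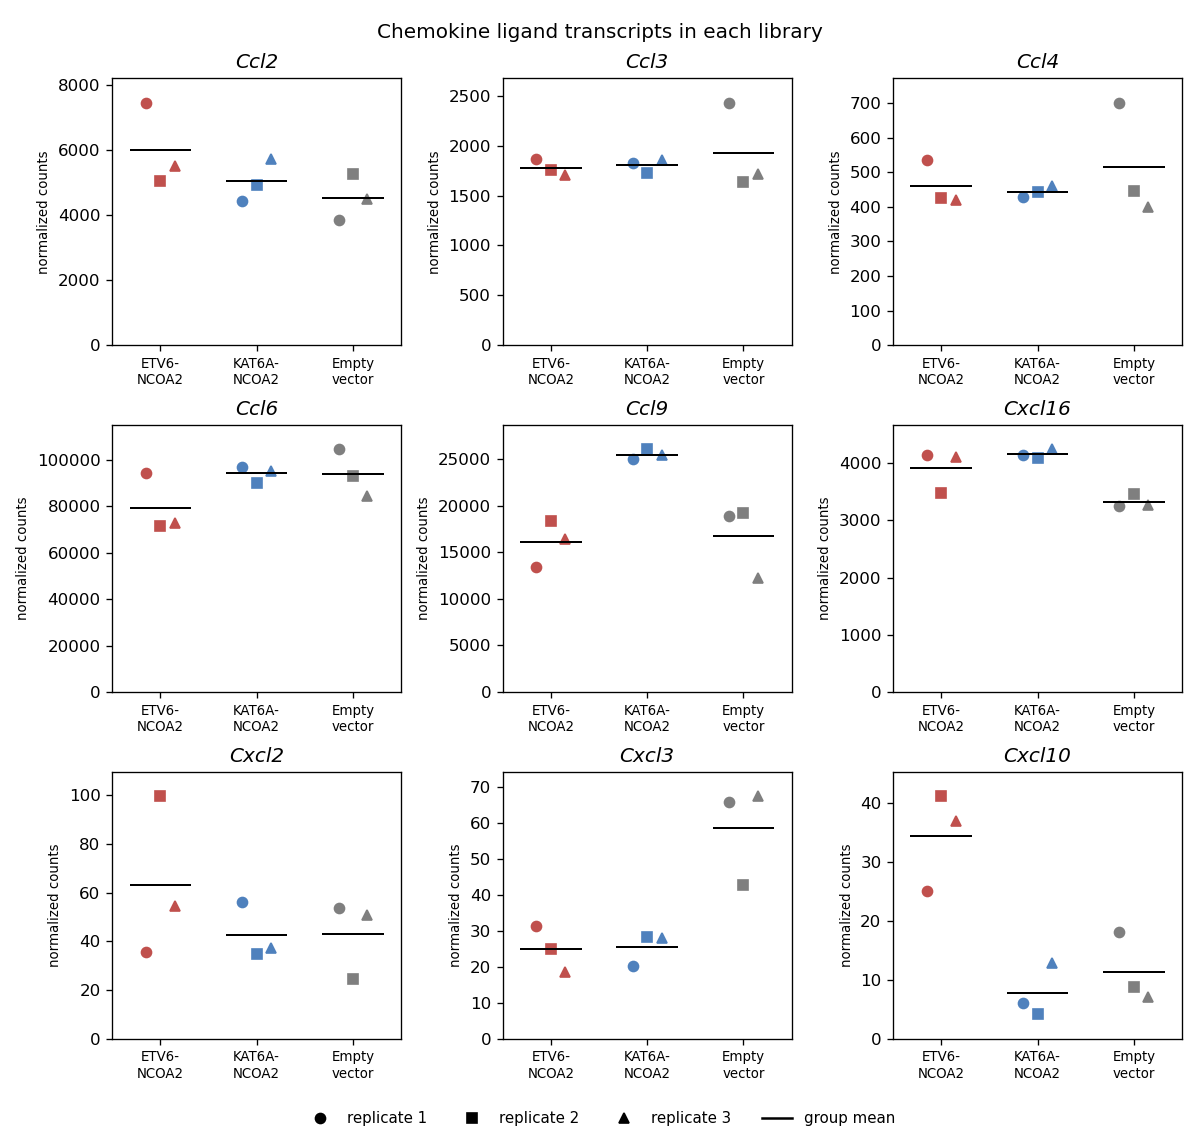
Normalized counts (vertical axis, from 0) of the 9 ligands in each library of the ETV6-NCOA2, KAT6A-NCOA2 and empty vector groups, with points for libraries and lines for group means (n = 3). Ccl9 with KAT6A-NCOA2 (25029 to 26034), Cxcl3 with empty vector (42.7 to 67.5) and Cxcl10 with ETV6-NCOA2 (25.1 to 41.1) each stand clear of the other groups.

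Differences were tested with limma on log2(normalized counts + 1) over all 13750 genes, with Benjamini-Hochberg adjustment and a threshold of 0.05. With ETV6-NCOA2 against empty vector, 1 of the 9 ligands was called, Cxcl3, which fell, where 2.84% of all genes were called and 1.82% were called lower. With KAT6A-NCOA2 against empty vector, 3 of 9 were called (Ccl9 and Cxcl16 higher, Cxcl3 lower), where 25.4% of all genes were called, 11.6% higher and 13.7% lower. With ETV6-NCOA2 against KAT6A-NCOA2, 1 of 9 was called (Cxcl10, higher), where 3.09% of all genes were called and 2.84% were called higher. Cxcl10 met the inclusion condition only through its ETV6-NCOA2 libraries, where it is high, so nothing is read from that count. The libraries of the groups did not overlap for 3, 3 and 2 ligands in these comparisons, against 21.5%, 42.9% and 27.2% of all genes. The median log2 fold change of the 9 ligands was -0.05, 0.01 and -0.02 in the 3 comparisons, beside 0.01, 0.02 and -0.01 over all genes. Both comparisons with empty vector use the same 3 control libraries. In bulk RNA, fewer cells of a type and less RNA per cell cannot be told apart.

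**Figure D2:**
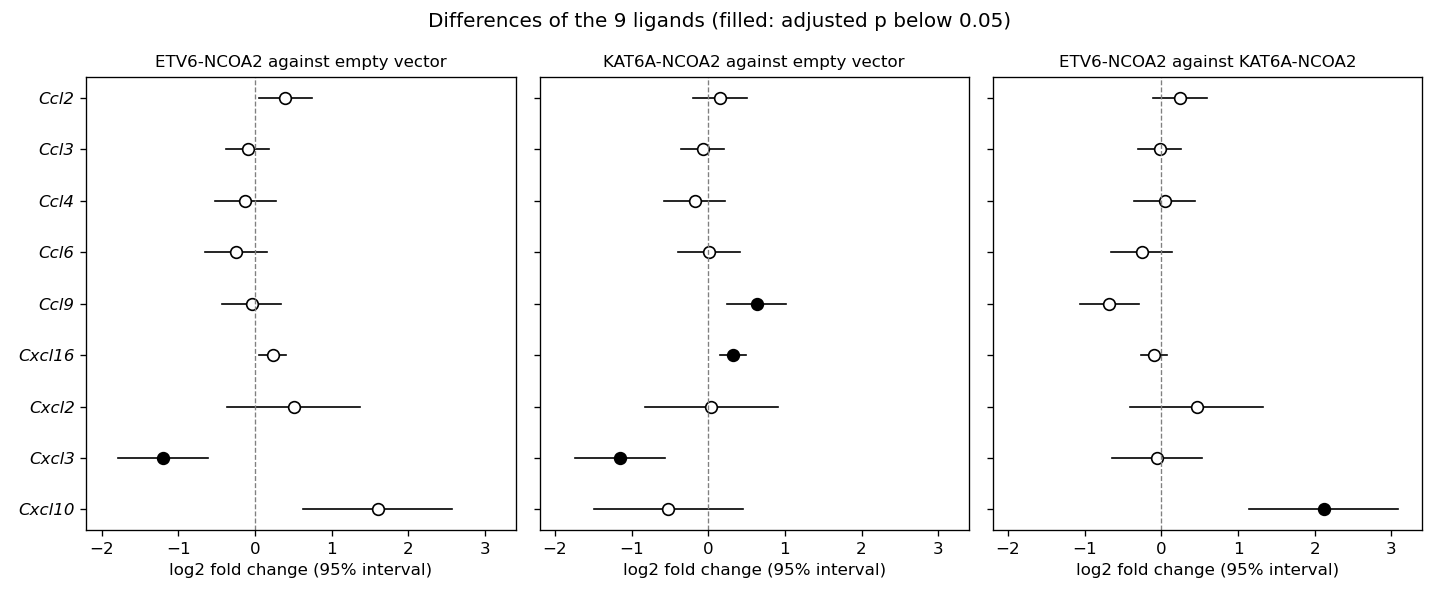
Log2 fold changes (horizontal axis) of the 9 ligands in the 3 comparisons, with 95% limma intervals; filled points have an adjusted p below 0.05. Cxcl3 is filled at -1.21 and -1.15 against empty vector, Ccl9 at 0.63 and Cxcl16 at 0.32 with KAT6A-NCOA2, and Cxcl10 at 2.12 between the fusions.

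Of the Cxcr2 ligands, which draw neutrophils, Cxcl3 was lower with both fusions and Cxcl2 was not called in any comparison. Cxcl3 had 31.4, 24.9 and 18.5 normalized counts in ETV6-NCOA2 libraries 1, 2 and 3, and 20.4, 28.4 and 28.1 in KAT6A-NCOA2 libraries, against 66.0, 42.7 and 67.5 in empty vector libraries. Every empty vector library lay above every fusion library, and the fusion groups overlapped. These values rest on 18 to 76 reads. This gave a log2 fold change of -1.21 ± 0.27 (SE; limma adjusted p = 0.0413) with ETV6-NCOA2 and -1.15 ± 0.27 (limma adjusted p = 0.0111) with KAT6A-NCOA2. Between the fusions it was -0.05, with a 95% interval of -0.64 to 0.53. The ETV6-NCOA2 call was not made in a fit of the 2 groups alone (limma adjusted p = 0.0775), in which 1.27% of all genes were called. It was also lost without ETV6-NCOA2 replicate 2 or 3 (adjusted p = 0.129 and 0.134), KAT6A-NCOA2 replicate 2 or 3 (0.0665 and 0.0637) or empty vector replicate 1 or 3 (0.164 and 0.130), while the KAT6A-NCOA2 call was lost without empty vector replicate 1 (0.0507).

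Cxcl2 had 35.5, 99.5 and 54.5 normalized counts in ETV6-NCOA2 libraries and 56.0, 34.7 and 37.4 in KAT6A-NCOA2 libraries, against 53.5, 24.4 and 50.6 in empty vector libraries. The 3 groups overlapped, and ETV6-NCOA2 replicate 2 was the highest library. The log2 fold change was 0.50 (95% interval -0.36 to 1.37) with ETV6-NCOA2 and 0.04 (-0.83 to 0.91) with KAT6A-NCOA2, so wide intervals remained for this gene. Within libraries, the ratio of Cxcl3 to Cxcl2 normalized counts was 0.882, 0.250 and 0.340 with ETV6-NCOA2 and 0.364, 0.818 and 0.750 with KAT6A-NCOA2, against 1.23, 1.75 and 1.33 with empty vector. The ratio was above 1 in each empty vector library and below 1 in each fusion library. The transcripts of these genes share 61 stretches of 50 bases, which are 6.31% of those in Cxcl3 and 3.37% of those in Cxcl2, so few reads could be split between them.

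The receptor of these ligands, Cxcr2, is carried mainly by neutrophils. It had 164, 128 and 94.6 normalized counts in ETV6-NCOA2 libraries and 172, 97.8 and 85.3 in KAT6A-NCOA2 libraries, against 718, 200 and 369 in empty vector libraries. All fusion libraries lay below all empty vector libraries. Its log2 fold change was -1.73 ± 0.41 (limma adjusted p = 0.0130) with KAT6A-NCOA2, lost without KAT6A-NCOA2 replicate 2 (0.0542) or 3 (0.0583). With ETV6-NCOA2 it was -1.57 ± 0.41, which did not pass (limma adjusted p = 0.0702). Summed levels of neutrophil markers, and of mast cell and basophil markers, were lower in both fusion groups than with empty vector. This did not hold for every cell type. The sums of T, B and NK cell markers were 373 to 589 with ETV6-NCOA2, against 365 to 572 with empty vector. With KAT6A-NCOA2 these sums were lower, at 35.1 to 71.3. Of the 6 markers in that list, 2 were tested. The summed level of the neutrophil markers, of which 8 of 10 are in the table and Camp stayed under 10 normalized counts everywhere, was 6048 to 10274 with ETV6-NCOA2 and 2134 to 2351 with KAT6A-NCOA2, against 11096 to 14994 with empty vector. Of 7 neutrophil markers tested, 1 fell (Mpo) and 0 rose with ETV6-NCOA2, with a median log2 fold change of 0.05, so the lower sum there does not stand for the whole list. With KAT6A-NCOA2 6 of the 7 fell, with a median of -3.38. Of all genes, 1.82% were called lower with ETV6-NCOA2 and 13.7% with KAT6A-NCOA2, each against empty vector. The summed level of 10 mast cell and basophil markers was 27987 to 43628 and 11484 to 29519 with the fusions, against 71022 to 135219 with empty vector, and 6 and 10 of these 10 fell. Their part in the result was not tested.

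Of the Ccr1 ligands, Ccl9 was higher with KAT6A-NCOA2 and its abundant neighbour Ccl6 was not called. Both are CC ligands known from rodents that attract monocytes and macrophages. Ccl9 had 13436, 18395 and 16398 normalized counts in ETV6-NCOA2 libraries and 25029, 26034 and 25389.8 in KAT6A-NCOA2 libraries, against 18942, 19226 and 12225 in empty vector libraries. The KAT6A-NCOA2 libraries lay within a narrow band above all others, and the ETV6-NCOA2 and empty vector libraries overlapped. Group means were 16076 ± 2495 with ETV6-NCOA2, 25484 ± 509 with KAT6A-NCOA2 and 16798 ± 3962 with empty vector (SD, n = 3 each). With KAT6A-NCOA2 against empty vector the log2 fold change was 0.63 ± 0.18 (limma adjusted p = 0.0243). The call was lost without KAT6A-NCOA2 replicate 2 (0.0804) or 3 (0.0728), or without empty vector replicate 3, when the log2 fold change was 0.42 (0.0650).

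With ETV6-NCOA2 against KAT6A-NCOA2 the libraries of Ccl9 did not overlap, and its log2 fold change was -0.68 ± 0.18. This missed the threshold (limma adjusted p = 0.0653). With the replicate number as a block it passed (0.0357), but that fit also blocks the empty vector libraries. Whether their numbers pair them with the fusion libraries is not known. The difference passed too in a fit of the 2 fusion groups alone (0.0159), which called 5.99% of all genes. It also passed without empty vector replicate 2 (0.0368) or 3 (0.0227), and by DESeq2 on the recovered reads (0.00337), which called 5.77% of all genes, but not by edgeR (0.0709). The block brought the genes called in this comparison to 983 (7.15%), against 425 without it. With ETV6-NCOA2 against empty vector the log2 fold change of Ccl9 was -0.05 (95% interval -0.43 to 0.34).

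Ccl6 had 94223, 71399 and 72833 normalized counts in ETV6-NCOA2 libraries and 97197, 90205 and 95455 in KAT6A-NCOA2 libraries, against 104554, 93090.0 and 84493 in empty vector libraries. The groups overlapped in each comparison, with the lowest values in ETV6-NCOA2 replicates 2 and 3. For Ccl6 the log2 fold change was -0.25 (95% interval -0.65 to 0.15) with ETV6-NCOA2 and 0.01 (-0.39 to 0.41) with KAT6A-NCOA2, and the KAT6A-NCOA2 sign turned with other scalings. The ratio of Ccl9 to Ccl6 was 0.143, 0.258 and 0.225 with ETV6-NCOA2 and 0.258, 0.289 and 0.266 with KAT6A-NCOA2, against 0.181, 0.207 and 0.145 with empty vector. Each KAT6A-NCOA2 ratio was above each empty vector ratio, and the ETV6-NCOA2 ratios overlapped both groups.

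**Figure D3:**
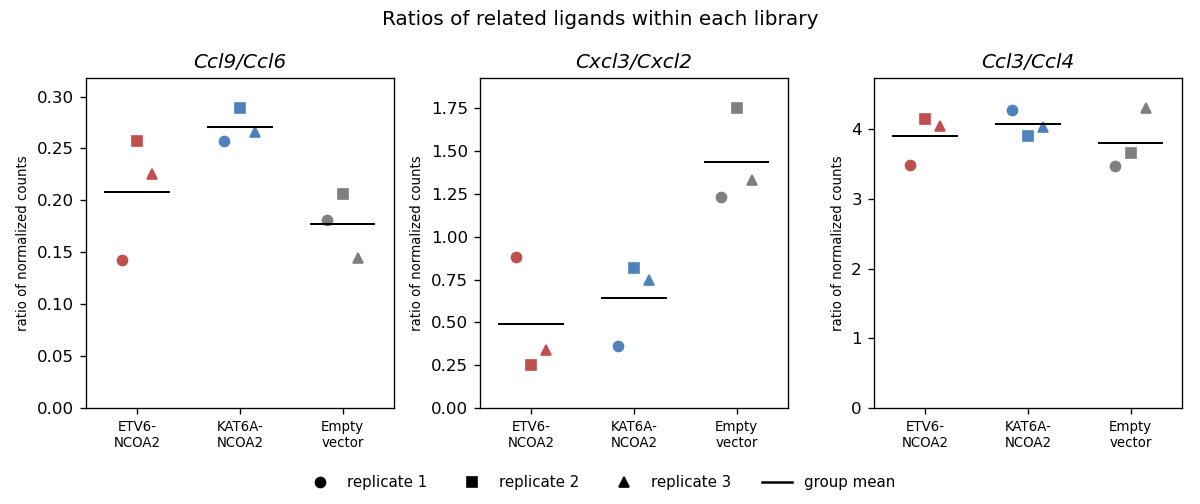
Ratios of normalized counts within each library for Ccl9 to Ccl6, Cxcl3 to Cxcl2 and Ccl3 to Ccl4 (vertical axes from 0, points for libraries, lines for group means, n = 3). The Cxcl3 to Cxcl2 ratio is 1.23 to 1.75 in empty vector libraries and at most 0.882 in fusion libraries, while the Ccl3 to Ccl4 ratio stays between 3.46 and 4.29.

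Ccl3 and Ccl4, related CC ligands of monocytes and T cells, of which Ccl3 binds Ccr1, were called in no comparison. Ccl3 had 1871, 1759 and 1703 normalized counts in ETV6-NCOA2 libraries and 1826, 1726 and 1857 in KAT6A-NCOA2 libraries, against 2431, 1632 and 1719.9 in empty vector libraries. Ccl4 had 536, 425 and 421 with ETV6-NCOA2 and 428, 443 and 460.5 with KAT6A-NCOA2, against 702, 447 and 400.5 with empty vector. Empty vector replicate 1 was the highest library for both, and the groups overlapped. The 95% intervals of the log2 fold change of Ccl3 ran from -0.37 to 0.19 with ETV6-NCOA2 and from -0.35 to 0.21 with KAT6A-NCOA2. For Ccl4 they ran from -0.53 to 0.27 and from -0.57 to 0.22. The ratio of Ccl3 to Ccl4 stayed between 3.46 and 4.29 over the 9 libraries, and their log2 values had a Pearson r of 0.91, as a description of libraries that share depth and groups.

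Transcripts of Ccr1, a receptor of these CC ligands, rose with KAT6A-NCOA2. Ccr1, chosen after its values were seen because it binds Ccl3, Ccl6 and Ccl9, had 8036, 8331 and 8455 normalized counts with ETV6-NCOA2 and 10032, 11176 and 10721 with KAT6A-NCOA2, against 6459, 8918 and 7278 with empty vector. All KAT6A-NCOA2 libraries were above all others, with a log2 fold change of 0.51 ± 0.11 against empty vector (limma adjusted p = 0.00839). Between the fusions its log2 fold change was -0.36, which did not pass (limma adjusted p = 0.108).

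**Figure D4:**
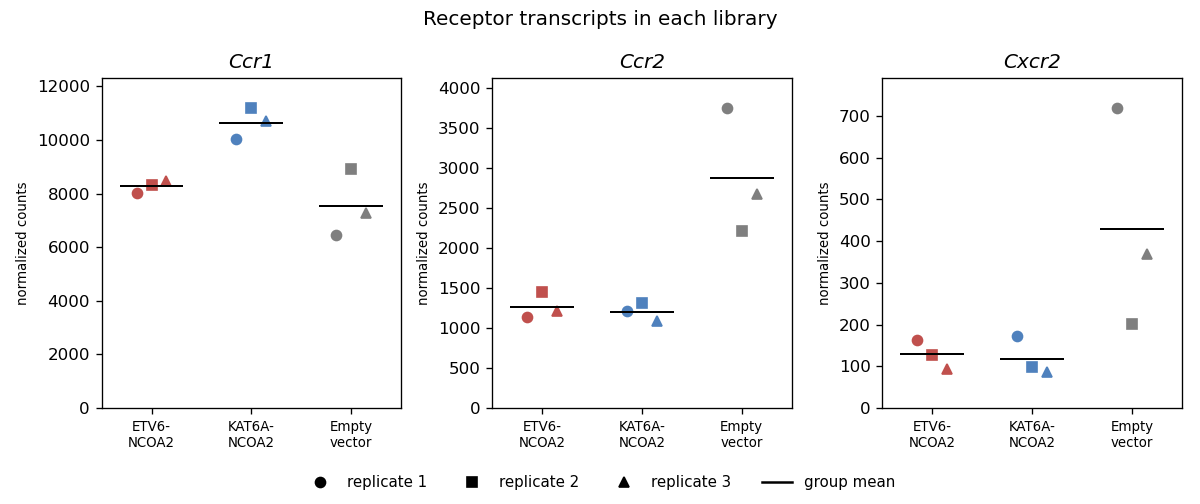
Normalized counts (vertical axes from 0) of Ccr1, Ccr2 and Cxcr2 in each library, with points for libraries and lines for group means (n = 3). Ccr2 and Cxcr2 are lower in every fusion library than in every empty vector library, and Ccr1 is higher in every KAT6A-NCOA2 library than in every empty vector library.

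Ccl2, the Ccr2 ligand that calls monocytes out of the marrow, was not called in any comparison, while transcripts of its receptor fell with both fusions. Ccl2 had 7447, 5050.3 and 5511 normalized counts in ETV6-NCOA2 libraries and 4435, 4929 and 5726 in KAT6A-NCOA2 libraries, against 3851, 5267 and 4477 in empty vector libraries. The groups overlapped, and ETV6-NCOA2 replicate 1 was the highest. The log2 fold change was 0.40 ± 0.16 with ETV6-NCOA2 (95% interval 0.05 to 0.75, limma adjusted p = 0.189) and 0.15 ± 0.16 with KAT6A-NCOA2 (-0.20 to 0.50, limma adjusted p = 0.506). Ccr2 had 1143, 1455 and 1206 normalized counts with ETV6-NCOA2 and 1216, 1312 and 1083 with KAT6A-NCOA2, against 3742, 2206 and 2671 with empty vector. All fusion libraries lay below all empty vector libraries. The log2 fold change was -1.15 ± 0.17 with ETV6-NCOA2 (limma adjusted p = 0.00941) and -1.22 ± 0.17 with KAT6A-NCOA2 (limma adjusted p = 0.000970), and both calls held whichever library was left out.

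The genes next to Ccl2 encode related ligands. Ccl12, which binds Ccr2 in the mouse, had 867, 499 and 712 normalized counts with ETV6-NCOA2 and 645, 381 and 658 with KAT6A-NCOA2, against 1218, 769.7 and 1337 with empty vector. The KAT6A-NCOA2 libraries lay below the empty vector libraries, and the ETV6-NCOA2 libraries overlapped both. Its log2 fold change was -0.98 ± 0.27 with KAT6A-NCOA2 (limma adjusted p = 0.0227), lost without KAT6A-NCOA2 replicate 2 (0.0897) or empty vector replicate 1 (0.0845) or 3 (0.0854). With ETV6-NCOA2 it was -0.67 ± 0.27 (limma adjusted p = 0.189). Ccl7, another Ccr2 ligand beside Ccl2, averaged 2041 ± 369.5 with ETV6-NCOA2 and 1743 ± 262 with KAT6A-NCOA2, against 1848 ± 143 with empty vector (SD, n = 3 each), and was called in no comparison; it was named after its values were seen.

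Cxcl16, made as a membrane-bound ligand of Cxcr6 that also takes up oxidized lipoprotein, was higher with KAT6A-NCOA2. It had 4152, 3479 and 4103 normalized counts in ETV6-NCOA2 libraries and 4151, 4087 and 4240.2 in KAT6A-NCOA2 libraries, against 3258, 3457 and 3273 in empty vector libraries. All fusion libraries lay above all empty vector libraries and the fusion groups overlapped. This corresponds to a log2 fold change of 0.32 ± 0.08 with KAT6A-NCOA2 (limma adjusted p = 0.0131), lost without KAT6A-NCOA2 replicate 3 (0.0538) or empty vector replicate 1 (0.0504). With ETV6-NCOA2 it was 0.23 ± 0.08 and did not pass (limma adjusted p = 0.127), and between the fusions it was -0.09 (95% interval -0.26 to 0.08). Exons of Zmynd15 on the opposite strand overlap Cxcl16, and 19.0% of the 50-base stretches of Cxcl16 are shared with it. Whether the authors counted by strand is not given in the sources used here. Zmynd15 had 157 to 203 normalized counts with ETV6-NCOA2 and 202 to 214 with KAT6A-NCOA2, against 138 to 184 with empty vector. The macrophage marker sums given above overlapped between the groups and reached their highest value with KAT6A-NCOA2, and their part in the result was not tested.

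Cxcl10, the interferon-induced ligand of Cxcr3 that draws activated T cells, was higher with ETV6-NCOA2 than with KAT6A-NCOA2. It had 25.1, 41.1 and 37.0 normalized counts in ETV6-NCOA2 libraries and 6.11, 4.21 and 12.9 in KAT6A-NCOA2 libraries, against 18.2, 8.71 and 7.10 in empty vector libraries. All ETV6-NCOA2 libraries lay above all others, and the other groups overlapped. The values rest on 24 to 43 reads with ETV6-NCOA2, 4 to 11 with KAT6A-NCOA2 and 8 to 19 with empty vector. The log2 fold change between the fusions was 2.12 ± 0.44 (95% interval 1.14 to 3.09, limma adjusted p = 0.0279). Outside ETV6-NCOA2, KAT6A-NCOA2 replicate 3 and empty vector replicate 1 were the only libraries to reach 10, so the gene entered the test through the group where it is high, which favours a difference; with no filter the adjusted p was 0.0255. The call was lost without ETV6-NCOA2 replicate 1 (0.0560), 2 (0.113) or 3 (0.0878) or KAT6A-NCOA2 replicate 1 (0.0677) or 2 (0.121), and at a filter of 30 the gene was not tested. With ETV6-NCOA2 against empty vector it was 1.60 ± 0.44 and missed the threshold (limma adjusted p = 0.0773), as it did by edgeR (0.0556) and with no filter (0.0814). It passed with DESeq2 (0.0217), which called 7.85% of all genes, and with a pseudocount of 10 (0.0472), which called 3.37%. With KAT6A-NCOA2 it was -0.52 (95% interval -1.49 to 0.45). An exon of Art3 overlaps Cxcl10 on the opposite strand, and Art3 had 4.11 to 9.40 normalized counts with ETV6-NCOA2 and 1.17 to 4.21 with KAT6A-NCOA2, against 3.55 to 7.84 with empty vector. Cxcr3 itself had 3.15 to 12.5 normalized counts over the 9 libraries and was not tested.

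Of 14 interferon response genes, 7 rose and 0 fell with ETV6-NCOA2 against KAT6A-NCOA2, where 2.84% of all genes were called higher. The median log2 fold change of the 14 was 1.49, beside -0.01 over all genes. Among the 7 called genes the largest rises were in Ifit3, Ifit2, Rsad2 and Mx1, effectors of the antiviral response. Ifit2 had 865, 393 and 373 normalized counts with ETV6-NCOA2, against 159.9, 110.4 and 132 with KAT6A-NCOA2, groups that did not overlap (log2 fold change 1.91 ± 0.36, limma adjusted p = 0.0191). It was lost without ETV6-NCOA2 replicate 1 (0.0527) or KAT6A-NCOA2 replicate 2 (0.0947) or 3 (0.0801). Ifit3 (2.63, limma adjusted p = 0.0385), Rsad2 (1.83, 0.0186) and Mx1 (1.78, 0.0402) were called as well. Without any 1 fusion library Ifit3 (0.0680 to 0.159) and Mx1 (0.0617 to 0.134) lost their calls, as did Rsad2 without replicate 1 or 2 of ETV6-NCOA2 or 2 or 3 of KAT6A-NCOA2 (0.0649 to 0.0895). Against empty vector, ETV6-NCOA2 gave 0 calls of 14 by limma, where 2.84% of all genes were called, and 0 by edgeR. DESeq2 called 6 of the 14 and 7.85% of all genes. At an unadjusted limma p below 0.05 there were 11, and the median log2 fold change was 0.89. The mean log2 value of the 14 genes was 9.49, 8.65 and 8.69 in ETV6-NCOA2 libraries and 7.66, 7.66 and 7.81 in KAT6A-NCOA2 libraries, against 8.42, 8.53 and 7.47 in empty vector libraries. ETV6-NCOA2 replicate 1 had the highest interferon mean of that group and its lowest Cxcl10.

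**Figure D5:**
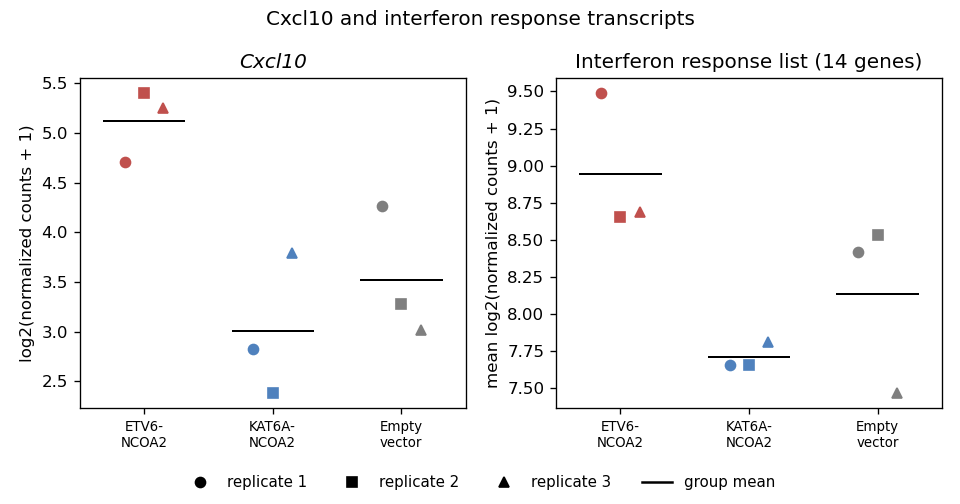
Log2 values of Cxcl10 (left) and mean log2 values of 14 interferon response genes (right) in each library, with lines for group means (n = 3); the axes do not start at 0. All 3 ETV6-NCOA2 libraries are the highest in both panels, and empty vector replicate 3, at 7.47, has the lowest interferon mean.

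Beyond the members, 12 of 24 other chemokine ligands were tested. With KAT6A-NCOA2 against empty vector 2 of the 12 fell, Ccl12 and the low Ccl17, where 13.7% of all genes were called lower. The count is near that share, and nothing is read from it. Ccl17 averaged 3.91 ± 2.03 with KAT6A-NCOA2 and 13.9 ± 1.57 with empty vector (SD, n = 3 each, limma adjusted p = 0.0341). Ccl17, a Ccr4 ligand, reached 10 normalized counts in the empty vector libraries alone and so entered the test through the group where it is high, which favours a fall; with no filter the adjusted p was 0.0355. It lost its call without KAT6A-NCOA2 replicate 2 (0.120) or 3 (0.0900) or empty vector replicate 1 (0.114) or 3 (0.0868). With ETV6-NCOA2 against empty vector 0 passed by limma, edgeR or DESeq2, and 2 had an unadjusted p below 0.05. Of 10 receptors tested, 1 fell with ETV6-NCOA2 against empty vector (Ccr2), where 2.84% of all genes were called. With KAT6A-NCOA2 against empty vector 2 rose and 3 fell, where 11.6% of all genes were called higher and 13.7% lower. The other fall besides Cxcr2 and Ccr2 was in Ccr7, the receptor that guides dendritic cells, with 31.9 ± 6.27 normalized counts with KAT6A-NCOA2 against 52.6 ± 10.9 with empty vector (SD, n = 3 each; limma adjusted p = 0.0468). Leaving out any 1 of 6 libraries (ETV6-NCOA2 or KAT6A-NCOA2 replicate 2 or 3, empty vector replicate 1 or 2) ended that call, at adjusted p values of 0.0509 to 0.164, and it was not made by DESeq2 (0.0558), with no filter (0.0559) or in a fit of the 2 groups alone (0.0618). Between the fusions 0 receptors passed by limma or edgeR and 1 by DESeq2, with 1 at an unadjusted p below 0.05.

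Of 7 proteases that trim or release chemokines, 5 rose and 1 fell with KAT6A-NCOA2 against empty vector, where 11.6% of all genes were called higher and 13.7% lower. The median log2 fold change of the 7 was 1.08, beside 0.02 over all genes, and Adam10, named as the 1 that did not pass, had a limma adjusted p of 0.0565. Dpp4, which clips the first residues of Cxcl10 and other ligands, had 39.7, 43.1 and 38.0 normalized counts with ETV6-NCOA2 and 14.3, 13.7 and 15.2 with KAT6A-NCOA2, against 85.1, 101.0 and 114 with empty vector. The 3 groups did not overlap. Its log2 fold change was -1.28 ± 0.18 with ETV6-NCOA2 (limma adjusted p = 0.00898), -2.71 ± 0.18 with KAT6A-NCOA2 (limma adjusted p = 3.2e-05) and 1.42 ± 0.18 between the fusions (limma adjusted p = 0.00261), and no left-out library ended these calls. Mmp9, Mmp13 and Mmp12, metalloproteinases of macrophages, rose with KAT6A-NCOA2 by log2 fold changes of 2.03, 1.88 and 1.72 (limma adjusted p = 0.0166, 0.0157 and 0.0239). Mmp9 was low, at 46.2 ± 13.5 normalized counts with KAT6A-NCOA2 and 11.3 ± 6.81 with empty vector (SD, n = 3 each). Mmp12 averaged 499809 and 173493 in these groups. The calls of Mmp9, Mmp13 and Mmp12 were each lost without KAT6A-NCOA2 replicate 2 or 3 or empty vector replicate 1 or 3 (adjusted p 0.0539 to 0.107). Adam17, a sheddase of membrane-bound ligands, chosen after its values were seen, rose by 0.38 (limma adjusted p = 0.0228), and lost its call without the same 4 libraries (0.0685 to 0.0937).

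Of 16 NF-kappaB factors and feedback genes, Tnfaip3 rose and Il6 and Nfkb1 fell with KAT6A-NCOA2 against empty vector. These 3 are a smaller share of the list than the 25.4% of all genes called in that comparison. Nfkb1, the precursor of the p50 subunit, had 2534, 2603 and 2839.9 normalized counts with ETV6-NCOA2 and 1916, 1926 and 1914 with KAT6A-NCOA2, against 2785, 2536 and 2454 with empty vector. All KAT6A-NCOA2 libraries lay below all others. Nfkb1 changed by -0.43 ± 0.07 on the log2 scale with KAT6A-NCOA2 against empty vector (limma adjusted p = 0.00204) and 0.47 ± 0.07 with ETV6-NCOA2 against KAT6A-NCOA2 (limma adjusted p = 0.00607). Tnfaip3, which encodes the inhibitor A20, rose by 0.37 with KAT6A-NCOA2 (limma adjusted p = 0.00299). Il6, a cytokine also supplied in the medium as protein, averaged 414 ± 70.8 with ETV6-NCOA2 and 139 ± 61.1 with KAT6A-NCOA2, against 585 ± 280.0 with empty vector (SD, n = 3 each). Its log2 fold change was -2.01 with KAT6A-NCOA2 (limma adjusted p = 0.00438), held in every fit without 1 library, and 1.64 between the fusions (limma adjusted p = 0.0455). The call between the fusions was lost by edgeR (0.0668) and without any ETV6-NCOA2 library, KAT6A-NCOA2 replicate 2 or 3 or empty vector replicate 3 (0.0653 to 0.189). With ETV6-NCOA2 against empty vector 0 of 16 passed by limma or edgeR and 1 by DESeq2, with 4 at an unadjusted p below 0.05.

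Zfp36, whose product tristetraprolin speeds the decay of chemokine and cytokine mRNAs, was the 1 of 4 mRNA decay genes that rose with ETV6-NCOA2. Against empty vector, 2.84% of all genes were called with this fusion. Zfp36 had 8183, 8806 and 8381 normalized counts in ETV6-NCOA2 libraries and 6754, 6543 and 7212 in KAT6A-NCOA2 libraries, against 5615, 5904 and 6705 in empty vector libraries. The ETV6-NCOA2 libraries lay above all others, and the other groups overlapped. For ETV6-NCOA2 against empty vector it changed by 0.48 ± 0.08 on the log2 scale (limma adjusted p = 0.0198). It was lost in a fit of the 2 groups alone (0.0554) and without ETV6-NCOA2 replicate 2 (0.0836) or 3 (0.0674) or empty vector replicate 1 (0.0756). With KAT6A-NCOA2 against empty vector 0 of the 4 passed by limma or edgeR and 1 by DESeq2, with 1 at an unadjusted p below 0.05. Limma called 25.4% of all genes in that comparison.

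Each ligand was also set beside the tested genes whose log2 values over the 9 libraries were most like its own by Pearson r. These values describe libraries that share groups and depth. Ccl3 was closest to Ccl4 (0.91), and Ccl4 to the kinase gene Mapkapk2 (0.93). Cxcl3 was closest to Fam83d (0.97), Slc38a5 (0.97) and Gk (0.97). Slc38a5, an amino acid transporter, averaged 5.73 and 4.38 normalized counts with ETV6-NCOA2 and KAT6A-NCOA2, against 34.5 with empty vector, which was the highest group for Cxcl3 as well. Cxcl10 was closest to Rapgef6 (0.97), B3galt5 (0.96) and Gmfg (0.96), and B3galt5 averaged 80.6 normalized counts with ETV6-NCOA2 and 24.2 with KAT6A-NCOA2, against 29.3 with empty vector. Cxcl16 was closest to Inppl1 (0.97), Chmp6 (0.97) and the ectoenzyme gene Cd38 (0.96), and Cd38 averaged 2679 and 2919.7 with ETV6-NCOA2 and KAT6A-NCOA2, against 2093 with empty vector. Ccl9 was closest to Dynll1 (0.97), Magi3 (0.97) and Sept11 (0.96), Ccl6 to Rnf128 (0.97), Ccl2 to Ezh1 (0.95) and Cxcl2 to Wars2 (0.96).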

How the data were processed

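The authors deposited normalized counts, a signal with 1 scaling factor per library, for 17266 genes in 9 libraries; per the submitters' processing notes, cutadapt, STAR 2.4.2a, HTSeq, DESeq2 and GRCm38 were used. In each library 100% of the deposited values were whole multiples of 1 number within 0.01, so reads were recovered (17.1 to 20.4 M per library; counting error only, no molecular identifiers).

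Genes with at least 10 normalized counts in at least 3 libraries were tested (13750; 3516 left out) with limma 3.58.1 (lmFit, eBayes with trend) on log2(value + 1) in R 4.3.3, all 9 libraries in 1 fit, Benjamini-Hochberg within each comparison, threshold 0.05. The fold changes understate changes of low genes. The model was checked on simulated data. On the recovered reads, edgeR 4.0.16 called 506, 3444 and 382 genes and DESeq2 1.42.0 called 1016, 3618 and 793 (ETV6-NCOA2 against empty vector, KAT6A-NCOA2 against empty vector, ETV6-NCOA2 against KAT6A-NCOA2), beside 390, 3488 and 425 by limma. Other alternatives were pseudocounts of 0.1 and 10, filters of 0 and 30, TMM rescaling, a fit of 2 groups, a replicate block and leaving out each library. 

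The design planned for normalized or raw values, and the test for normalized values was used. Deviations of equally numbered ETV6-NCOA2 and KAT6A-NCOA2 libraries correlated across genes (0.301, 0.199 and 0.295 for numbers 1 to 3). Unequal numbers of these groups gave -0.309 to 0.0418, so the numbers may pair these libraries. Elsewhere unequal numbers also correlated, with 0.254 for ETV6-NCOA2 replicate 3 and empty vector replicate 2. The 9 members and the gene lists were chosen with earlier results of these data known. All 9 members are named, with up to 4 called genes of each other list per comparison and the genes most like each member; other named genes are marked. Levels per kilobase use the longest protein-coding transcript. Transcripts were compared in 50-base stretches. A gene of a list is not reported here, and the counts include it.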

Additional observations from a re-analysis of the deposited data

How the results depend on the processing

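The genes called with ETV6-NCOA2 against empty vector numbered 390, but 1016 with DESeq2, 174 in a fit of the 2 groups alone, 1255 with a replicate block, and 61 (without ETV6-NCOA2 replicate 2) to 1765 (without empty vector replicate 2) when 1 library was left out. The ligands called there were 1, but 2 with a pseudocount of 10 and with DESeq2, 0 in the fit of the 2 groups, and 0 to 1 without a library. With KAT6A-NCOA2 against empty vector, leaving out a library gave 1779 (without empty vector replicate 1) to 4320 (without its replicate 2) genes and 1 to 3 ligands, and the block gave 4137 genes. Whether equal numbers pair fusion and empty vector libraries is not known. Deviations of these equally numbered libraries correlated at 0.313, 0.0468 and -0.0757 (ETV6-NCOA2) and 0.387, 0.172 and -0.0287 (KAT6A-NCOA2) for numbers 1 to 3. Between the fusions the 425 genes became 793 with DESeq2, 823 with the 2 groups alone, 983 with the replicate block and 163 (without KAT6A-NCOA2 replicate 2) to 913 (without empty vector replicate 2). The 1 ligand called there became 0 with the filter of 30, which leaves Cxcl10 untested, 2 with DESeq2, the 2 groups alone or the block, and 0 to 2 without a library.

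Some signs turned among ligands that were not called. With KAT6A-NCOA2 the log2 fold change of Ccl6 was -0.00023 with TMM, -0.0045 with edgeR and -0.00073 with DESeq2, and that of Cxcl2 was -0.0030 with edgeR and -0.0058 with DESeq2. Without 1 library, with ETV6-NCOA2 Ccl3 ran from -0.20 to 0.084, Ccl4 from -0.29 to 0.11 and Ccl9 from -0.26 to 0.078. With KAT6A-NCOA2 Ccl3 ran from -0.18 to 0.11, Ccl4 from -0.34 to 0.068, Ccl6 from -0.066 to 0.088 and Cxcl2 from -0.31 to 0.24. Between the fusions Ccl3 ran from -0.059 to 0.0091, Ccl4 from -0.069 to 0.11 and Cxcl3 from -0.23 to 0.14. No called difference changed sign under any alternative run. Where calls changed, the cause was not tested, except that the filter of 30 removes Cxcl10. Depth limits Cxcl10, Cxcl2 and Cxcl3, which rest on 4 to 104 reads a library.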

Other observations

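Among the chemokine ligands outside the 9 members, the platelet ligands Pf4 and Ppbp and the CC ligand Ccl8 were abundant, and they are named after their values were seen. Pf4 had 38939.8, 23392 and 18119 normalized counts in ETV6-NCOA2 libraries and 35315, 25937 and 24920.0 in KAT6A-NCOA2 libraries, against 21722, 16721 and 24949 in empty vector libraries. The groups overlapped. Ppbp had 17164, 16538 and 9663 with ETV6-NCOA2 and 31588, 24142 and 18987 with KAT6A-NCOA2, against 15717, 11889 and 21943 with empty vector. Its KAT6A-NCOA2 libraries lay above its ETV6-NCOA2 libraries (log2 fold change -0.80 ± 0.27 for ETV6-NCOA2 against KAT6A-NCOA2, limma adjusted p = 0.151). Ccl8 had 15317, 7878 and 11969.5 with ETV6-NCOA2 and 11625, 8111 and 12446 with KAT6A-NCOA2, against 24060.0, 10153 and 16992 with empty vector, and the groups overlapped.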
